A study of Mus musculus with 66 samples.

Results

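The DEAD and DEAH box helicases are described here as the genes whose symbol began with Ddx or Dhx followed by a digit, with 1 such gene left out. The rule used no measured value. It found 50 genes, 34 with a Ddx and 16 with a Dhx symbol, among the 15856 genes of the 3'READS table, and 24 of them (15 Ddx and 9 Dhx) were also listed among the 9999 genes of the RNA-seq table. At the level of polyadenylation (pA) sites the 50 genes held 192 of 59578 sites. Both assays were made from C2C12 cells, an immortalised line of mouse myoblasts, which were transfected with 50 nM siRNA for 48 h. The siRNAs were siCtrl (the non-specific siRNA that the labels call siNS), siPaf1, siCdc73 and siSki8, and the target of siSki8 is listed in the tables as Wdr61. Paf1, Cdc73 and Ski8 are subunits of Paf1C, the polymerase-associated factor complex. In both assays all samples were transfected, the controls included, and untransfected cells were not among them. Each assay had 7 libraries, namely 1 library of siCtrl, siPaf1 and siCdc73 in each of 2 batches and 1 library of siSki8 in batch 2 only, so that siSki8 had no replicate. The labels do not say whether the batches were separate cultures, and p-values therefore measure only the spread between these libraries, which may be technical. In every pair of values below, batch 1 is given first.

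DEAD and DEAH box proteins are enzymes that use ATP to open RNA duplexes or to strip proteins from RNA. The spliceosome uses a different member at each of its steps, ribosome assembly in the nucleolus uses many others, and the rest act in mRNA export, translation, RNA decay, mitochondria, immune sensing and the germ line. Most are housekeeping genes of dividing cells, and Ddx5 and Ddx17 are also known in muscle as coregulators that act with MyoD. Paf1C travels with RNA polymerase II and takes part in elongation, histone modification and 3' end formation. The study asked how its subunits change where transcripts are cleaved and polyadenylated.

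The RNA-seq libraries held 2796693 to 8160386 reads in coding regions and the 3'READS libraries 5302728 to 14340927 PASS reads, which are reads with untemplated A bases that mark a cleavage site. Levels are given in CPM, read counts divided by the library size in units of 1e6 reads and scaled by the trimmed mean of M values. The targeted genes followed the labels in RNA-seq. Paf1 stood at 107 and 159.8 CPM in siCtrl, 20.3 and 31.1 in siPaf1, 264 and 418 in siCdc73, and 179.9 in siSki8, Cdc73 at 109 and 98.4 CPM in siCtrl, 98.5 and 111 in siPaf1, 14.2 and 22 in siCdc73, and 125 in siSki8, and Wdr61 at 49.8 and 129 CPM in siCtrl, 107 and 133 in siPaf1, 98.9 and 152 in siCdc73, and 5.97 in siSki8. Of the myoblast markers, Cdh15, Myf5, Itga7 and Des were present in all 7 3'READS libraries, but Myod1 had only 0 to 8 reads in a library. Of the blood markers, Ptprc had 0 to 5 and Cd68 15 to 48 reads per 3'READS library, and of the endothelial markers, Pecam1 had 0 to 4 and Cdh5 3 to 15. The 7 myotube markers in 3'READS summed to 74.9 and 102 CPM in siCtrl, 109 and 259 in siPaf1, 27.1 and 74.5 in siCdc73, and 121 in siSki8, and the 4 in RNA-seq summed to 7.41 and 25.1 CPM in siCtrl, 26.6 and 115 in siPaf1, 9.13 and 40.5 in siCdc73, and 32.7 in siSki8. With the batch as a block, 2 of these 7 in 3'READS and 2 of these 4 in RNA-seq passed the test as higher after siPaf1. After siCdc73, 2 of 7 passed as lower in 3'READS and 2 of 4 as higher in RNA-seq, against 11.8% and 19.4% of all genes. After siSki8, 1 of 4 passed as higher in RNA-seq, against 2.93%. The 5 myoblast markers summed to 809 to 1952 CPM over the 7 3'READS libraries. With the block, 2 of the 4 tested in 3'READS were lower after siPaf1 and 1 of 4 after siCdc73, against 9.08% and 11.8% of all genes. Of the 3 tested in RNA-seq 1 was higher and 1 lower after each. Over all genes 16.3% were higher and 16.2% lower there after siPaf1, and 19.4% and 20.5% after siCdc73. The 3'READS counts of both marker lists after siPaf1 were smaller without siPaf1 of batch 2. Cdh15 stood at 99.2 and 654 CPM in siCtrl, 46.3 and 310.0 in siPaf1, 36.9 and 132 in siCdc73, and 356 in siSki8 in 3'READS. The part of these marker differences in the results below was not tested. The 3'READS library of siPaf1 in batch 2 stood apart. In it 271 genes had more than 20 times the level of every other library, together 1.04% of its reads, against 0 such genes in each of the other 6 libraries. Of these genes 2 were helicases. The germ-line marker Sycp3 was not among them and stood at 0.90 and 1.13 CPM in siCtrl, 7.49 and 135 in siPaf1, 4.78 and 7.24 in siCdc73, and 0.455 in siSki8. It was the 1 of 2 germ-line markers called with the block, higher after siPaf1 (adjusted p = 0.00017) and after siCdc73 (adjusted p = 0.0246), without the block 0.197 and 0.384, and it was also called with the block after siPaf1 without siPaf1 of batch 2. Results on helicases after siPaf1 are therefore also given without this library where that changes a call or a count. In bulk samples such as these, fewer cells of a type and less RNA per cell cannot be told apart.

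The test of each gene was edgeR's quasi-likelihood test over all genes of an assay, with Benjamini-Hochberg adjustment and a threshold of 0.05. Without a term for the batch, no helicase passed in either assay after any knockdown, and neither did any other gene (0.0% of 6521 genes in RNA-seq and 0.0% of 12579 in 3'READS). The smallest adjusted p of a helicase was 0.0712. At an unadjusted p under 0.05, RNA-seq gave 2 of 23 tested helicases with siPaf1, 1 with siCdc73 and 1 with siSki8, against 17.7%, 21.1% and 5.54% of all genes. The same count in 3'READS was 4 of 49 with siPaf1, 4 with siCdc73 and 0 with siSki8, against 13.5%, 15.3% and 3.33%. The batches differed strongly, and the same test with the batch as a block gave many calls. For each helicase named, both values are given, and rose, fell and called are used only for what passed with the block. In RNA-seq, siPaf1 then raised 3 helicases and lowered 4 of 23, where 32.5% of all genes were called (16.3% higher and 16.2% lower). After siCdc73 it was 6 higher and 1 lower of 23, against 39.9% of all genes (19.4% higher and 20.5% lower). This split depends on the scale, for with library size scaling and the block it was 4 higher and 4 lower of 23, against 14.8% higher and 27% lower over all genes. Ddx27 and Dhx40 were then not called, and Ddx23, Ddx59 and Dhx15 were called lower. After siSki8 it was 1 higher, against 5.43% (2.93% higher and 2.5% lower), and under library size scaling the same gene, Ddx18, against 7.38% (1.3% higher and 6.07% lower). In 3'READS, siPaf1 raised 5 and lowered 2 of 49, against 18.8% (9.74% higher and 9.08% lower). Among those raised, Ddx4 and Ddx25 had enough reads for a test only through siPaf1 of batch 2, so this count is a description. After siCdc73 it was 7 higher and 0 lower, against 22.5% (10.8% higher). After siSki8 it was 0, with 7 of 49 at an unadjusted p under 0.05, against 0.151% of all genes called and 11.6% at an unadjusted p under 0.05. The share of helicases called was therefore close to or below that of all genes in every comparison. Without siPaf1 of batch 2, the counts after siPaf1 were 2 higher and 2 lower of 23 in RNA-seq, against 30.1% of all genes called, and 3 higher and 1 lower of 47 in 3'READS, against 13.9%.

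The typical helicase moved little. The 49 tested in 3'READS had a median log2 fold change, without the block, of 0.11 with siPaf1, 0.27 with siCdc73 and 0.18 with siSki8, beside 0.06, 0 and 0 over all genes. When 1 library was left out, these medians ran from 0.02 (without siPaf1 of batch 2) to 0.25 (without siCtrl of batch 2) with siPaf1, from 0.10 (without siCdc73 of batch 2) to 0.36 (without siCtrl of batch 2) with siCdc73 and from 0.16 to 0.40 (without siCtrl of batch 2) with siSki8. In RNA-seq the median of 23 was 0.01, 0.12 and 0.33, beside 0.01, −0.02 and −0.02, and when 1 library was left out it ran from −0.03 (without siPaf1 of batch 1) to 0.25 (without siPaf1 of batch 2) with siPaf1, from 0.08 (without siCtrl of batch 2) to 0.20 (without siCdc73 of batch 2) with siCdc73 and from 0.24 to 0.39 with siSki8. Under library size scaling it was 0.01, −0.05 and −0.01, beside 0.03, −0.18 and −0.35 over all genes. The siPaf1 change had the same sign in both assays for 17 of the 23 helicases tested in both (73.9%, against 79.2% of all genes), the siCdc73 change for 18 (78.3% against 82.7%) and the siSki8 change for 21 (91.3% against 69.9%). For siPaf1 it was 14 of 23 without siPaf1 of batch 2 (60.9% against 77.5%). Whether the libraries of the 2 assays came from the same transfections is not given in the sources used here, so these shares only describe the 2 measurements.

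**Figure D1:**
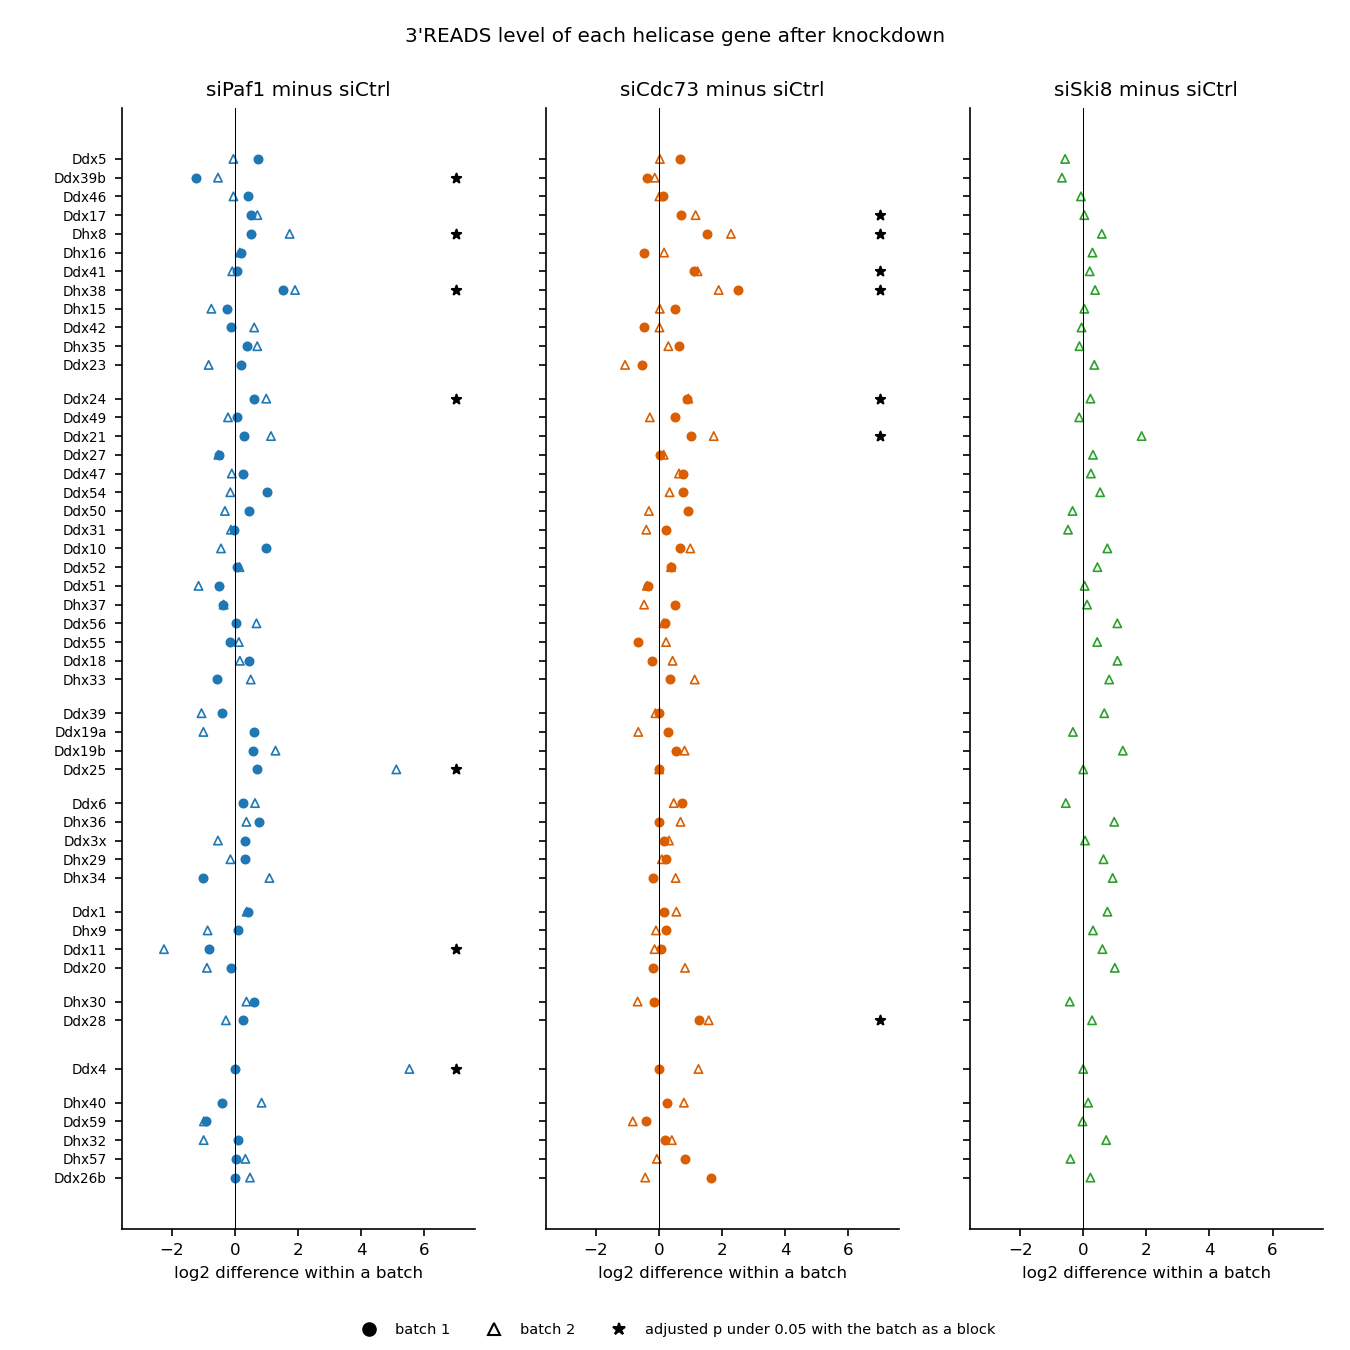
Log2 difference in CPM from siCtrl of the same batch (x axis, prior count 2, circles for batch 1 and triangles for batch 2) for the 49 helicases tested in 3'READS, grouped by role, after siPaf1, siCdc73 and siSki8. A star marks an adjusted p under 0.05 with the batch as a block (7 for siPaf1, 7 for siCdc73 and 0 for siSki8), and most helicases lie near 0 in both batches, while Ddx4 and Ddx25 lie far to the right in siPaf1 of batch 2. Both had enough reads for a test only through that library.

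Levels differed widely within the family. In 3'READS, which counts 1 read per transcript end and so needs no length correction, the 2 siCtrl libraries averaged 871 CPM for Ddx5, 507 for Ddx24, 378 for Ddx49, 169 for Ddx21, 159 for Ddx39b and 153 for Ddx6. Ddx5 and Ddx24 work in splicing and transcription and in ribosome assembly, respectively, and Ddx6 represses and decays mRNA in the cytoplasm. Ddx5 stood at 781 and 961 CPM in siCtrl, 1306 and 926 in siPaf1, 1242 and 977 in siCdc73, and 645 in siSki8, and Ddx49 at 462 and 294 CPM in siCtrl, 481 and 252 in siPaf1, 657 and 239.7 in siCdc73, and 269 in siSki8. Ddx6 was far apart between the batches, with 59.1 and 248 CPM in siCtrl, 71 and 383 in siPaf1, 98.8 and 341 in siCdc73, and 169 in siSki8. Neither Ddx49 nor Ddx6 was called after any knockdown. Per coding length, in the deposited RPKM values, which divide counts by length and depth, the highest siCtrl values in RNA-seq were 339.8 and 391 for Ddx39b, 146 and 241 for Dhx15, and 122 and 119 for Dhx9. These are for the transcript with the highest mean count of each gene. Another listed transcript of Dhx15 had 105 and 95.9 in siCtrl, below Dhx9 and without the rise in batch 2.

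At the low end, 4 helicases averaged under 1 CPM over the siCtrl libraries in 3'READS. Dhx58, the RNA sensor LGP2, had 7 and 6 reads in siCtrl, 2 and 3 in siPaf1, 3 and 5 in siCdc73, and 0 in siSki8, and was the only member of the 50 that did not pass the filter on low counts in 3'READS. Ddx26b, which is related to a subunit of Integrator, had 0 and 12 reads in siCtrl, 0 and 25 in siPaf1, 2 and 11 in siCdc73, and 12 in siSki8. Ddx4, the germ-line helicase Vasa, had 0 and 0 reads in siCtrl, 0 and 141 in siPaf1, 0 and 4 in siCdc73, and 0 in siSki8, and in RNA-seq 0 and 0 reads in siCtrl, 0 and 0 in siPaf1, 2 and 4 in siCdc73, and 0 in siSki8, where it was not tested. Ddx25, a helicase of the testis, had 0 and 0 reads in siCtrl, 1 and 105 in siPaf1, 0 and 0 in siCdc73, and 0 in siSki8. Nearly all reads of Ddx4 and Ddx25 thus lay in the siPaf1 library of batch 2, and they are the 2 helicases among its 271 genes. After siPaf1 their adjusted p was 0.00647 for Ddx4 and 0.0141 for Ddx25 with the block, and 0.348 and 0.354 without it. Without that library neither gene passed the filter on low counts and no test could be made. Both calls were also lost without siCtrl of batch 2 (adjusted p = 1 for Ddx4 and 0.741 for Ddx25), and in DESeq2 with the block (0.455 and 0.0664). Since both siCtrl libraries were at 0, no fold change is given.

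**Figure D2:**
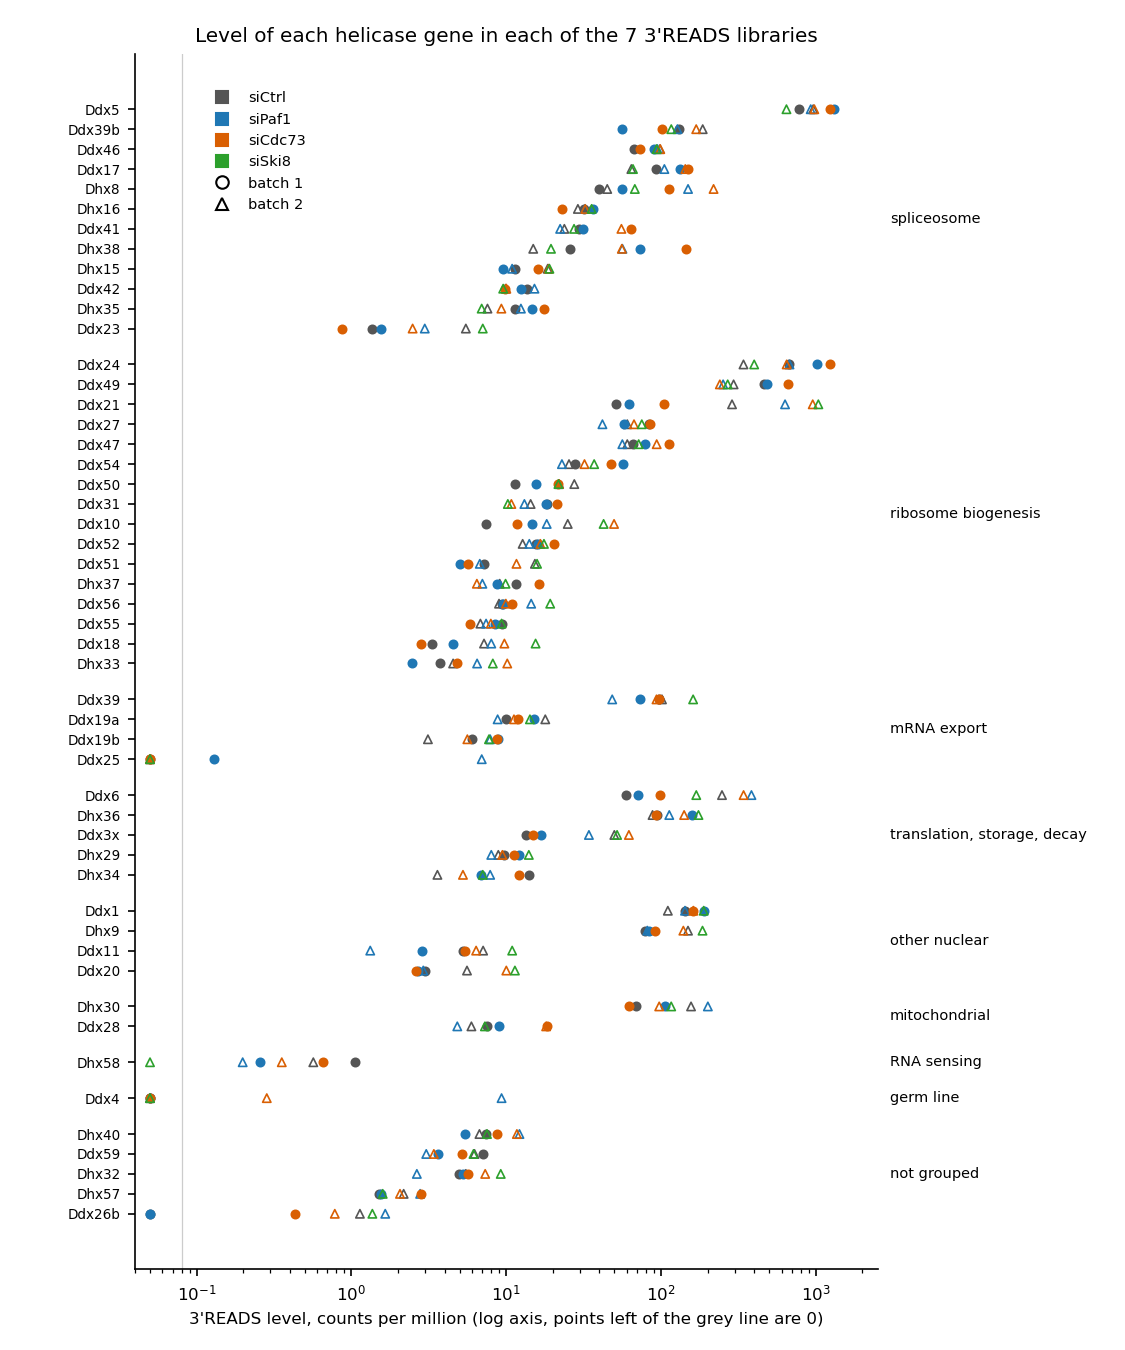
Level of each of the 50 helicases in the 7 3'READS libraries, in CPM on a log axis, grouped by role, with 1 point per library (circles for batch 1, triangles for batch 2, points left of the grey line at 0) and colours for siCtrl, siPaf1, siCdc73 and siSki8. Levels run from Ddx5 and Ddx24, the highest in siCtrl, down to Ddx4, Ddx25, Ddx26b and Dhx58, which averaged under 1 CPM in siCtrl.

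Of the 12 helicases of the spliceosome group, 2 rose and 1 fell after siPaf1 and 4 rose after siCdc73 in 3'READS, against 18.8% of all genes called after siPaf1 and 10.8% called higher after siCdc73. Of the 6 tested in RNA-seq, 2 rose and 2 fell after siPaf1 and 2 rose after siCdc73, against 32.5% called after siPaf1 and 19.4% called higher after siCdc73. With siPaf1 of batch 2 left out, 1 rose and 1 fell after siPaf1 in 3'READS, against 13.9% of all genes called, and 2 rose and 1 fell in RNA-seq, against 30.1%. Dhx8 (chr11:101594233-101628672, plus strand, mm9) is the helicase Prp22, which releases the finished mRNA from the spliceosome. It stood at 39.9 and 44.9 CPM in siCtrl, 56.1 and 149 in siPaf1, 113 and 218 in siCdc73, and 67.7 in siSki8 in 3'READS. In RNA-seq it stood at 133 and 107 CPM in siCtrl, 229 and 191 in siPaf1, 402 and 379 in siCdc73, and 205 in siSki8. Every knockdown library was above both siCtrl libraries in both assays, and siCdc73 was the highest in each batch. After siCdc73 the log2 fold change was 1.86 ± 0.32 (SE, adjusted p = 0.000847 with the block and 0.215 without it) in 3'READS and 1.71 ± 0.23 (SE, adjusted p = 9.33e-07 with the block and 0.0712 without it) in RNA-seq. Both calls held when any 1 of the 6 libraries of siCtrl, siPaf1 and siCdc73 was left out (adjusted p = 9.68e-12 to 0.0208 in 3'READS and 7.22e-19 to 0.000302 in RNA-seq). After siPaf1 it was 1.11 ± 0.31 (SE, adjusted p = 0.0216 with the block and 0.399 without it) in 3'READS, and the call was lost without siCtrl of batch 2 (0.502, with a log2 change of 0.61) or siPaf1 of batch 2 (0.15, with a log2 change of 0.69). In RNA-seq it was 0.81 ± 0.23 (SE, adjusted p = 0.0068 with the block and 0.265 without it) after siPaf1, lost without siCtrl of batch 2 (0.138).

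Dhx38 (chr8:112071917-112089501, minus strand) is Prp16, which remodels the spliceosome before its second step, and was not listed in RNA-seq. It stood at 25.7 and 14.9 CPM in siCtrl, 73.3 and 56.3 in siPaf1, 145 and 55.8 in siCdc73, and 19.5 in siSki8 in 3'READS. All 4 libraries of siPaf1 and siCdc73 were above both siCtrl libraries, while siSki8 lay between the siCtrl values. The log2 fold change was 1.72 ± 0.31 (SE, adjusted p = 0.00122 with the block and 0.306 without it) after siPaf1 and 2.21 ± 0.31 (SE, adjusted p = 0.000215 with the block and 0.173 without it) after siCdc73, and both calls held under the same omissions (adjusted p = 2.04e-08 to 0.00461 and 1.88e-14 to 0.000431). These 2 and the 2 calls of Dhx8 after siCdc73 were the only calls of a helicase's level, over both assays, that held under every such omission.

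Ddx41, a component of late spliceosomes that is also known as a DNA sensor, stood at 29.7 and 23.7 CPM in siCtrl, 31.2 and 22.3 in siPaf1, 64.3 and 55.4 in siCdc73, and 27.4 in siSki8 in 3'READS. Both siCdc73 libraries were above all others. The change on the log2 scale after siCdc73 was 1.17 ± 0.28 (SE, adjusted p = 0.00693 with the block and 0.247 without it), and the call was lost without siCtrl of batch 1 (0.0602), siCtrl of batch 2 (0.0691) or siCdc73 of batch 2 (0.0709). Ddx17, the coregulator of MyoD that also acts in splicing, stood at 93 and 64.3 CPM in siCtrl, 133 and 105 in siPaf1, 150.3 and 143 in siCdc73, and 65.9 in siSki8 in 3'READS and at 515 and 266 CPM in siCtrl, 808 and 518 in siPaf1, 959 and 504 in siCdc73, and 200.0 in siSki8 in RNA-seq. Within each batch and assay, siPaf1 and siCdc73 were above siCtrl, whereas siSki8 in RNA-seq was below both siCtrl libraries, a difference that did not pass. In RNA-seq the log2 fold change was 0.91 ± 0.22 (SE, adjusted p = 0.00147 with the block and 0.346 without it) after siCdc73, lost without siCdc73 of batch 1 (0.0673), and 0.81 ± 0.22 (SE, adjusted p = 0.00544 with the block and 0.497 without it) after siPaf1, lost without siCtrl of batch 2 (0.119). In 3'READS it was 0.93 ± 0.27 (SE, adjusted p = 0.0219 with the block and 0.348 without it) after siCdc73, lost without siCtrl of batch 1 (0.0674), siCtrl of batch 2 (0.28) or siCdc73 of batch 2 (0.26). Its paralog Ddx5 was not called in 3'READS, and it was not listed in RNA-seq.

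**Figure D3:**
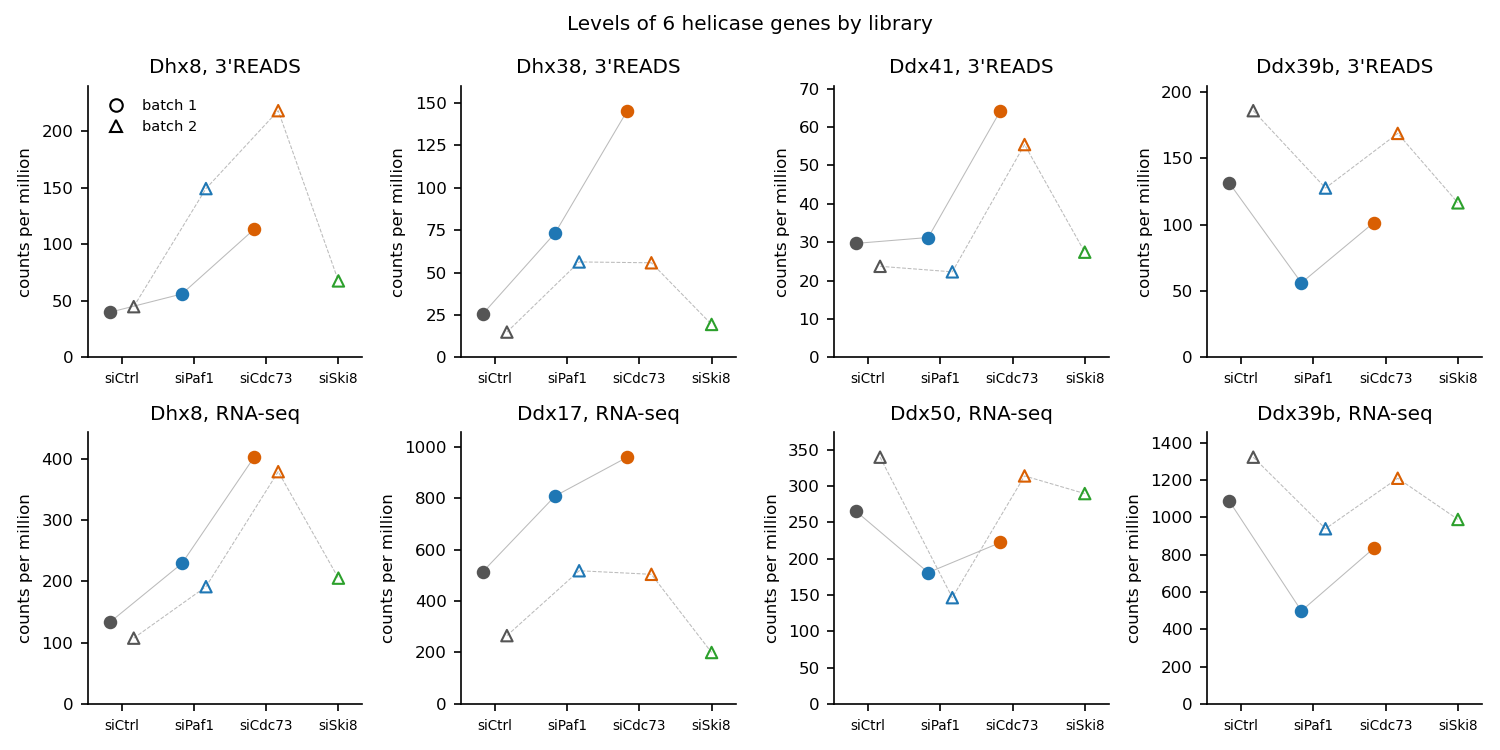
Levels by library of Dhx8, Dhx38, Ddx41 and Ddx39b in 3'READS and of Dhx8, Ddx17, Ddx50 and Ddx39b in RNA-seq, in CPM, with circles for batch 1, triangles for batch 2 and grey lines that join the libraries of a batch. Dhx8 and Dhx38 lie above both siCtrl libraries after siPaf1 and siCdc73, and Ddx39b and, in RNA-seq, Ddx50 lie below both siCtrl libraries after siPaf1.

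Ddx39b and Dhx15 were the spliceosomal helicases that fell after siPaf1. Ddx39b, or UAP56, helps to assemble the spliceosome and loads the TREX complex that exports mRNA. It stood at 131 and 186 CPM in siCtrl, 56.1 and 128 in siPaf1, 101 and 169 in siCdc73, and 116 in siSki8 in 3'READS and at 1088 and 1322 CPM in siCtrl, 499 and 939 in siPaf1, 834 and 1209 in siCdc73, and 989 in siSki8 in RNA-seq. Both siPaf1 libraries were below both siCtrl libraries in each assay. On the log2 scale the change after siPaf1 was -0.87 ± 0.28 (SE, adjusted p = 0.0384 with the block and 0.553 without it) in 3'READS, lost without siCtrl of batch 1 (0.308), siCtrl of batch 2 (0.0963) or siPaf1 of batch 1 (0.165) and under scaling by library size (0.0609), and -0.81 ± 0.22 (SE, adjusted p = 0.0055 with the block and 0.443 without it) in RNA-seq, lost without siCtrl of batch 1 (0.169). Dhx15, or Prp43, takes the spent spliceosome apart. In RNA-seq it stood at 869.6 and 1511 CPM in siCtrl, 620.4 and 736 in siPaf1, 716 and 1096 in siCdc73, and 1770.5 in siSki8, with both siPaf1 libraries below both siCtrl libraries. Its log2 fold change after siPaf1 was -0.76 ± 0.22 (SE, adjusted p = 0.00801 with the block and 0.391 without it), lost without siCtrl of batch 2 (0.188) or siPaf1 of batch 2 (0.0521). In 3'READS Dhx15 stood at 11.4 and 18.5 CPM in siCtrl, 9.55 and 10.9 in siPaf1, 16.1 and 18.8 in siCdc73, and 19 in siSki8 and was not called. 

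The other spliceosomal helicases, Dhx16, Dhx35, Ddx23 and Ddx42, were not called in 3'READS. Dhx16, or Prp2, which acts before the first step, stood at 31.8 and 29 CPM in siCtrl, 36.3 and 32.3 in siPaf1, 22.8 and 32.4 in siCdc73, and 35.6 in siSki8 in 3'READS, and Ddx42, a partner of U2 snRNP, at 13.7 and 9.93 CPM in siCtrl, 12.4 and 15.2 in siPaf1, 9.77 and 10.0 in siCdc73, and 9.56 in siSki8. Dhx35 stood at 11.4 and 7.56 CPM in siCtrl, 14.7 and 12.4 in siPaf1, 17.6 and 9.3 in siCdc73, and 6.94 in siSki8. Ddx23, the helicase Prp28 that displaces U1 snRNP, was the least abundant of the group in 3'READS, with 1.35 and 5.48 CPM in siCtrl, 1.55 and 2.98 in siPaf1, 0.869 and 2.48 in siCdc73, and 7.05 in siSki8. In RNA-seq Ddx23 stood at 276 and 288 CPM in siCtrl, 349.6 and 245 in siPaf1, 215 and 216 in siCdc73, and 311 in siSki8. Both siCdc73 libraries were below both siCtrl libraries there, a difference that did not pass. 

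Ddx46 and Dhx9 are the 2 helicases that the study names. It shows Ddx46 as an example of a gene with changes in alternative polyadenylation (APA) after depletion of Paf1C subunits. Its methods also list RT-qPCR primers for total and full-length Ddx46 transcripts. Ddx46, or Prp5, acts when U2 snRNP binds the branch site, and stood at 67.1 and 98.3 CPM in siCtrl, 89.4 and 94.8 in siPaf1, 73.2 and 98.8 in siCdc73, and 93.6 in siSki8 in 3'READS. The gap between the siCtrl libraries covered nearly the whole range of the 7, and Ddx46 was not called after any knockdown. Dhx9, an RNA helicase that resolves R-loops, stood at 79.1 and 149 CPM in siCtrl, 83.5 and 81.5 in siPaf1, 91.8 and 139 in siCdc73, and 185 in siSki8 in 3'READS and at 1255 and 1299 CPM in siCtrl, 1095 and 1262 in siPaf1, 1464 and 1189 in siCdc73, and 1644 in siSki8 in RNA-seq. The siPaf1 and siCdc73 values overlapped with siCtrl in 3'READS, siSki8 was the highest library in both assays, and Dhx9 was not called after any knockdown in either assay. 

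Of the 16 helicases of ribosome biogenesis, 1 rose after siPaf1 and 2 rose after siCdc73 in 3'READS, against 9.74% and 10.8% of all genes called higher. Of the 8 tested in RNA-seq, 1 fell after siPaf1, 3 rose after siCdc73 and 1 rose after siSki8, against 16.2% lower, 19.4% higher and 2.93% higher over all genes. When siPaf1 of batch 2 was left out, 1 of 16 (Ddx10) was called after siPaf1 in 3'READS and 0 of 8 in RNA-seq, against 13.9% and 30.1% of all genes. Ddx21, a nucleolar helicase of rRNA transcription and processing, stood at 51.3 and 287 CPM in siCtrl, 62 and 632 in siPaf1, 104 and 954 in siCdc73, and 1037 in siSki8 in 3'READS with a wide gap between batches. Batch 2 was above batch 1 in every group that had both, and within each batch siCtrl was the lowest. The log2 fold change after siCdc73 was 1.36 ± 0.29 (SE, adjusted p = 0.00383 with the block and 0.633 without it), lost without siCtrl of batch 2 (0.155). Without the block and without siCdc73 of batch 2 the change was −0.70. After siSki8 it was 1.57 ± 0.37 (SE, adjusted p = 0.0984 with the block and 1 without it), while DESeq2 with the block called it (adjusted p = 0.00177). Ddx24, which is needed for ribosomal RNA processing, was not called in RNA-seq. There it stood at 368 and 345 CPM in siCtrl, 479 and 365 in siPaf1, 497 and 483 in siCdc73, and 556 in siSki8. In 3'READS Ddx24 stood at 674 and 341 CPM in siCtrl, 1012 and 675 in siPaf1, 1235 and 648 in siCdc73, and 399 in siSki8, and within each batch both siPaf1 and siCdc73 were above siCtrl. The change on the log2 scale was 0.90 ± 0.26 (SE, adjusted p = 0.0228 with the block and 0.488 without it) after siCdc73, lost without siCtrl of batch 1 (0.111), siCtrl of batch 2 (0.27), siCdc73 of batch 1 (0.173) or siCdc73 of batch 2 (0.0974). After siPaf1 it was 0.79 ± 0.26 (SE, adjusted p = 0.0479 with the block and 0.589 without it), lost without siCtrl of batch 1 (0.161), siCtrl of batch 2 (0.46), siPaf1 of batch 2 (0.166), siCdc73 of batch 1 (0.0562) or siCdc73 of batch 2 (0.0508).

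Ddx50, the close paralog of Ddx21, stood at 265 and 339.6 CPM in siCtrl, 181 and 146 in siPaf1, 222 and 314 in siCdc73, and 289 in siSki8 in RNA-seq. Each siPaf1 library was below both siCtrl libraries, and siCdc73 was below siCtrl of its batch in both batches. On the log2 scale the change after siPaf1 was -0.86 ± 0.24 (SE, adjusted p = 0.0061 with the block and 0.263 without it), lost without siCtrl of batch 2 (0.118) or siPaf1 of batch 2 (0.0826, with a log2 change of -0.52). In 3'READS, where all its pA sites are summed, Ddx50 stood at 11.4 and 27.5 CPM in siCtrl, 15.6 and 22 in siPaf1, 21.7 and 21.9 in siCdc73, and 21.7 in siSki8 and was not called. Ddx47, which acts in processing of the rRNA precursor, stood at 154 and 314 CPM in siCtrl, 202 and 317 in siPaf1, 302 and 566 in siCdc73, and 378 in siSki8 in RNA-seq, with siCdc73 the highest group in each batch. Its log2 fold change after siCdc73 was 0.91 ± 0.22 (SE, adjusted p = 0.00183 with the block and 0.355 without it), lost without siCtrl of batch 1 (0.0524) or siCdc73 of batch 2 (0.0774). Dhx33, a nucleolar helicase of rRNA synthesis, stood at 51.3 and 22.7 CPM in siCtrl, 45.4 and 19.9 in siPaf1, 79.1 and 47.2 in siCdc73, and 28.5 in siSki8 in RNA-seq, with batch 1 above batch 2 in every group that had both and siCdc73 the highest group in each batch. The log2 fold change after siCdc73 was 0.82 ± 0.26 (SE, adjusted p = 0.0128 with the block and 0.478 without it), lost without siCtrl of batch 1 (0.0592), siCtrl of batch 2 (0.172) or siCdc73 of batch 2 (0.274). Ddx27, which acts in maturation of the large ribosomal subunit, stood at 332 and 308 CPM in siCtrl, 277 and 309.5 in siPaf1, 460.4 and 543 in siCdc73, and 466 in siSki8, both siCdc73 libraries being above both siCtrl libraries. The change on the log2 scale after siCdc73 was 0.64 ± 0.22 (SE, adjusted p = 0.0217 with the block and 0.308 without it), lost without siCtrl of batch 2 (0.292), siCdc73 of batch 1 (0.109) or siCdc73 of batch 2 (0.316), and under scaling by library size (0.0973).

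The remaining helicases of this group, none of them called in 3'READS with all libraries, were mostly of low level. Ddx54 stood at 27.9 and 25.4 CPM in siCtrl, 56.4 and 22.9 in siPaf1, 47.6 and 32 in siCdc73, and 37 in siSki8 in 3'READS, with siPaf1 far above siCtrl in batch 1 but below it in batch 2. Ddx10, which acts in small subunit assembly, stood at 7.35 and 25 CPM in siCtrl, 14.6 and 18.3 in siPaf1, 11.7 and 49.7 in siCdc73, and 42.5 in siSki8, with siCdc73 above siCtrl in each batch. Without siPaf1 of batch 2 it was called after siPaf1, with a log2 fold change of 1.07 (adjusted p = 0.0457 with the block and 0.98 without it). Ddx51 stood at 7.2 and 15.3 CPM in siCtrl, 5.03 and 6.75 in siPaf1, 5.65 and 11.6 in siCdc73, and 15.8 in siSki8, with siPaf1 below siCtrl in each batch. Ddx31, Ddx52, Ddx55, Ddx56 and Dhx37 lay between 5.86 and 21.3 CPM in all 7 libraries. Ddx27 and Ddx47, called in RNA-seq after siCdc73, stood in 3'READS at 83.1 and 60.5 CPM in siCtrl, 57.8 and 41.8 in siPaf1, 84.7 and 66.9 in siCdc73, and 75.1 in siSki8 and at 65.6 and 60.5 CPM in siCtrl, 78.7 and 56.2 in siPaf1, 112 and 93.7 in siCdc73, and 71.7 in siSki8, respectively. Ddx47 was again highest in siCdc73 in both batches, and DESeq2 with the block called it there (adjusted p = 0.0273), while Ddx27 was about level between siCtrl and siCdc73.

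After siSki8 Ddx18, another ribosome assembly factor, was the only helicase called by edgeR. It stood at 58.6 and 139 CPM in siCtrl, 67.6 and 126 in siPaf1, 69.8 and 114 in siCdc73, and 302 in siSki8 in RNA-seq, and siSki8 was above all other libraries. On the log2 scale the change was 1.26 ± 0.29 (SE, adjusted p = 0.00968 with the block and 0.781 without it), and the call was lost without siCtrl of batch 1 (0.0993) or siCtrl of batch 2 (0.0516). In 3'READS Ddx18 stood at 3.3 and 7.18 CPM in siCtrl, 4.52 and 8.0 in siPaf1, 2.82 and 9.73 in siCdc73, and 15.5 in siSki8, siSki8 again being the highest library, but it was not called. Dhx8 after siSki8 in RNA-seq had a log2 fold change of 0.89 ± 0.29 (SE, adjusted p = 0.0629 with the block and 0.781 without it). With 1 library, these values rest on the assumption that siSki8 varies as the other groups do.

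Among the remaining roles, the mitochondrial helicase Ddx28, which acts in assembly of the mitochondrial ribosome, stood at 7.5 and 5.96 CPM in siCtrl, 9.03 and 4.83 in siPaf1, 18.2 and 18.1 in siCdc73, and 7.28 in siSki8 in 3'READS. Both siCdc73 libraries were more than 2 times as high as both siCtrl libraries. Its log2 fold change after siCdc73 was 1.43 ± 0.36 (SE, adjusted p = 0.00967 with the block and 0.233 without it), lost without siCtrl of batch 1 (0.054), siCtrl of batch 2 (0.0535) or siCdc73 of batch 2 (0.167). Ddx11, a DNA helicase of sister chromatid cohesion, stood at 5.25 and 7.09 CPM in siCtrl, 2.84 and 1.32 in siPaf1, 5.43 and 6.39 in siCdc73, and 10.9 in siSki8 and was the other helicase that fell after siPaf1 in 3'READS. Both siPaf1 libraries were the lowest of the 7. The log2 fold change was -1.55 ± 0.46 (SE, adjusted p = 0.0289 with the block and 0.306 without it), lost without siCtrl of batch 2 (0.327) or siPaf1 of batch 2 (0.342, with a log2 change of -0.89), and in DESeq2 with the block (0.106). The call held without siPaf1 of batch 1, with a log2 change of -2.22. Ddx39, the paralog of Ddx39b in mRNA export, stood at 97.1 and 101 CPM in siCtrl, 73.1 and 48.4 in siPaf1, 97.5 and 93.4 in siCdc73, and 161 in siSki8. Both siPaf1 libraries were below both siCtrl libraries, with a log2 fold change of -0.73 ± 0.28 (SE, adjusted p = 0.0775 with the block and 0.466 without it) that did not pass (-1.04 to -0.44 when 1 library was left out). The 5 helicases of translation and mRNA storage and decay, Ddx3x, Ddx6, Dhx29, Dhx34 and Dhx36, were not called in 3'READS with all libraries, nor were Ddx6 and Dhx36, the 2 of them tested in RNA-seq. Dhx36 stood at 93.6 and 88.1 CPM in siCtrl, 158 and 113 in siPaf1, 92.9 and 141 in siCdc73, and 174 in siSki8 in 3'READS and at 247 and 255 CPM in siCtrl, 303 and 306 in siPaf1, 269.5 and 278 in siCdc73, and 384 in siSki8 in RNA-seq. In both assays siSki8 was its highest library. When siPaf1 of batch 2 was left out, Dhx36 was the 1 of these 5 called after siPaf1 in 3'READS, against 13.9% of all genes, with a log2 fold change of 0.92 (adjusted p = 0.0282 with the block and 0.724 without it). Ddx3x stood at 13.4 and 49.9 CPM in siCtrl, 16.8 and 34.2 in siPaf1, 15 and 62 in siCdc73, and 52 in siSki8 in 3'READS, with batch 2 far above batch 1 in every group that had both. Ddx1, a helicase of tRNA ligation, stood at 143 and 111 CPM in siCtrl, 189.7 and 143 in siPaf1, 159.6 and 162 in siCdc73, and 188 in siSki8 and was above siCtrl within each batch after every knockdown, without being called.

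Of the 4 helicases put in no role group and tested in RNA-seq, 1 rose and 1 fell after siPaf1 and 1 rose and 1 fell after siCdc73, against 32.5% and 39.9% of all genes called. Dhx57 rose after siPaf1, from 125 and 129.7 CPM in siCtrl to 158 and 237 CPM, by 0.61 ± 0.23 (SE, adjusted p = 0.0449 with the block and 0.402 without it) on the log2 scale. This call was lost without siCtrl of batch 1 (0.0988), siCtrl of batch 2 (0.452), siPaf1 of batch 2 (0.251, with a log2 change of 0.37), siCdc73 of batch 1 (0.0803) or siCdc73 of batch 2 (0.0923). Ddx59 stood at 32.8 and 45.7 CPM in siCtrl, 15.5 and 27.2 in siPaf1, 19.5 and 31.6 in siCdc73, and 49.2 in siSki8, and both siPaf1 libraries were below both siCtrl libraries. Its log2 fold change after siPaf1 was -0.91 ± 0.28 (SE, adjusted p = 0.0119 with the block and 0.378 without it), lost without siCtrl of batch 1 (0.18), siCtrl of batch 2 (0.065) or siPaf1 of batch 1 (0.0546). Dhx40 stood at 118 and 128 CPM in siCtrl, 163 and 171 in siPaf1, 199.7 and 173 in siCdc73, and 155 in siSki8, and every knockdown library was above both siCtrl libraries. Its log2 fold change after siCdc73 was 0.60 ± 0.23 (SE, adjusted p = 0.0384 with the block and 0.322 without it), lost without siCtrl of batch 1 (0.261), siCtrl of batch 2 (0.151), siCdc73 of batch 1 (0.362) or siCdc73 of batch 2 (0.137), and under scaling by library size (0.152). Dhx32 stood at 69.9 and 95 CPM in siCtrl, 55.8 and 46.1 in siPaf1, 42.1 and 64.5 in siCdc73, and 105 in siSki8, with siCdc73 below siCtrl in both batches. Its log2 fold change after siCdc73 was -0.64 ± 0.26 (SE, adjusted p = 0.0461 with the block and 0.383 without it), lost without siCtrl of batch 1 (0.121), siCtrl of batch 2 (0.345), siCdc73 of batch 1 (0.506, with a log2 change of -0.37) or siCdc73 of batch 2 (0.0871), and in DESeq2 with the block (0.11). In 3'READS none of the 4 was called.

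A direct test of siPaf1 against siCdc73, chosen after the data had been seen and made with the block, separated some helicases. In RNA-seq 5 of 23 were called, against 28.2% of all genes, and all 5 were lower after siPaf1. As siPaf1 minus siCdc73 on the log2 scale, the difference was -0.90 ± 0.23 (SE, adjusted p = 0.0038 with the block and 0.336 without it) for Dhx8 and -1.0 ± 0.27 (SE, adjusted p = 0.00676 with the block and 0.507 without it) for Dhx33. For Ddx27 it was -0.77 ± 0.22 (SE, adjusted p = 0.0106 with the block and 0.381 without it), for Ddx47 -0.71 ± 0.22 (SE, adjusted p = 0.0192 with the block and 0.554 without it) and for Ddx50 -0.68 ± 0.24 (SE, adjusted p = 0.0326 with the block and 0.437 without it). In 3'READS 6 of 49 were called, against 14.4%, 2 of them Ddx4 and Ddx25 with the siPaf1 library of batch 2 described above. These 2 passed the filter on low counts only through that library, so the count of 6 is a description. Ddx41, Ddx28 and Ddx11 were lower after siPaf1 than after siCdc73. The difference was -1.17 ± 0.27 (SE, adjusted p = 0.0114 with the block and 0.436 without it) for Ddx41, -1.44 ± 0.36 (SE, adjusted p = 0.0156 with the block and 0.434 without it) for Ddx28 and -1.49 ± 0.47 (SE, adjusted p = 0.0432 with the block and 0.448 without it) for Ddx11. Dhx30 was the 1 that was higher, by 0.90 ± 0.27 (SE, adjusted p = 0.0374 with the block and 0.587 without it). Dhx30, a helicase of mitochondrial RNA granules, stood at 69.2 and 156 CPM in siCtrl, 105 and 201 in siPaf1, 61.9 and 97.3 in siCdc73, and 116 in siSki8, with siPaf1 above and siCdc73 below siCtrl in each batch. Each of these 9 differences was lost without siCdc73 of batch 2, with an adjusted p from 0.114 to 0.48. Those of Ddx47, Ddx50, Ddx28 and Ddx11 were also lost without siPaf1 of batch 2 (adjusted p = 0.0668, 0.309, 0.125 and 0.423), and those of Ddx27, Ddx47, Ddx50 and Dhx30 without siCdc73 of batch 1 (adjusted p = 0.0802, 0.159, 0.0741 and 0.0738). When 1 library was left out, the difference ran from -1.07 without siPaf1 of batch 1 to -0.33 without siPaf1 of batch 2 for Ddx50 and from -2.16 without siPaf1 of batch 1 to -0.82 without siPaf1 of batch 2 for Ddx11.

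The 192 pA sites of the 50 helicases comprised 133 of the class deposited as last exon or downstream, 47 in introns of 21 genes, 4 in internal exons of 3 genes and 8 upstream antisense (UA) sites of 6 genes. An intronic site was listed for 42% of the helicases and for 42.3% of all genes, and a UA site for 12% and 14.2%. Both Ddx39 sites of the first class lay in the last intron of the annotated transcript, while the others lay in an exon (87) or outside the transcript (44). The most used sense site was of the class last exon or downstream for all 50. In the 36 helicases with 2 or more sense sites it was the same in every library with reads for 28, and over all 50 it took a median of 91.6% of a gene's sense reads. It took the smallest share, 25.6%, in Ddx56. Over the helicases as a whole the intronic sites held few reads. They took 0.288% and 0.187% in siCtrl, 0.424% and 0.347% in siPaf1, 0.419% and 0.341% in siCdc73, and 0.211% in siSki8 of the helicases' sense reads, against 2.04% and 1.7% in siCtrl, 2.8% and 2.59% in siPaf1, 2.53% and 2.4% in siCdc73, and 1.93% in siSki8 of those of all genes. The 4 most abundant helicases by reads summed over the 7 libraries (Ddx5, Ddx24, Ddx21 and Ddx49), for which no intronic site was listed, held 56.9% of the helicases' reads. Their share was 51.7% to 64.4% in single libraries. Ddx21 ranked lower in siCtrl of batch 1, where its 342 reads were below the 954 of Ddx1. In the 21 helicases with an intronic site, these sites took a median of 4.69% of the gene's reads. The share of the helicases was higher in all 4 siPaf1 and siCdc73 libraries than in both siCtrl libraries. Only 13 of the 47 intronic sites had at least 20 reads over the 7 libraries. All 47 lay within introns of the annotation, 1 of them in the first intron and 5 in the first or second. In the 30 bases that end at the site, 16 held the poly(A) signal AATAAA, 10 held ATTAAA but not AATAAA, and 21 held neither. Within 40 bases, 38.3% of the helicases' intronic sites held AATAAA and 61.7% held one of the pair, beside 45.1% and 60.8% of the intronic sites of all genes.

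For CDS-APA, the upstream isoforms of a gene are those that end at sites in introns or internal exons. They were set against its reads of the class last exon or downstream, called the 3'-most exon here. Sites under 5% of a gene's reads, summed over all 7 libraries, were left out, and genes with a mean under 20 reads per library were not tested. Only 6 helicases could be tested. Since the sums hold the knockdown libraries, a site rare in siCtrl could enter through the libraries where it was high, as sites of all 3 genes called did. Over both siCtrl libraries the site of Ddx19a took 7 of 255 sense reads (2.75%), that of Ddx50 11 of 367 (3%) and those of Ddx52 2 and 4 of 239 (0.837% and 1.67%). Without the siPaf1 libraries the Ddx19a site was at 3.71% and the Ddx52 site in intron 4 at 3.88%, so that they passed only through siPaf1. In siCtrl and siSki8 together the Ddx50 site took 19 of 558 reads (3.41%), so that it passed only through siPaf1 and siCdc73. Without the siCdc73 libraries the other Ddx52 site was at 3.97% and that of Dhx29 at 3.43%, and without siSki8 that Ddx52 site was at 4.64%. The counts that follow therefore only describe these 6. With the block, the upstream isoforms of 3 of 6 rose after siPaf1, against 23.0% of 1766 genes called (18.9% higher), and those of 2 of 6 rose after siCdc73, against 23.0% (20.3% higher). After siSki8 it was 0, with 0 at an unadjusted p under 0.05, against 0.0566% and 5.55%. Without the block it was 0 of 6 each time, against 2.27%, 3.57% and 0.0% of all genes. At an unadjusted p under 0.05 it was then 3, 2 and 0 of 6, against 20.3%, 20.0% and 1.87%. Without siPaf1 of batch 2, 0 of 6 were called after siPaf1, against 8.72% of all genes.

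**Figure D4:**
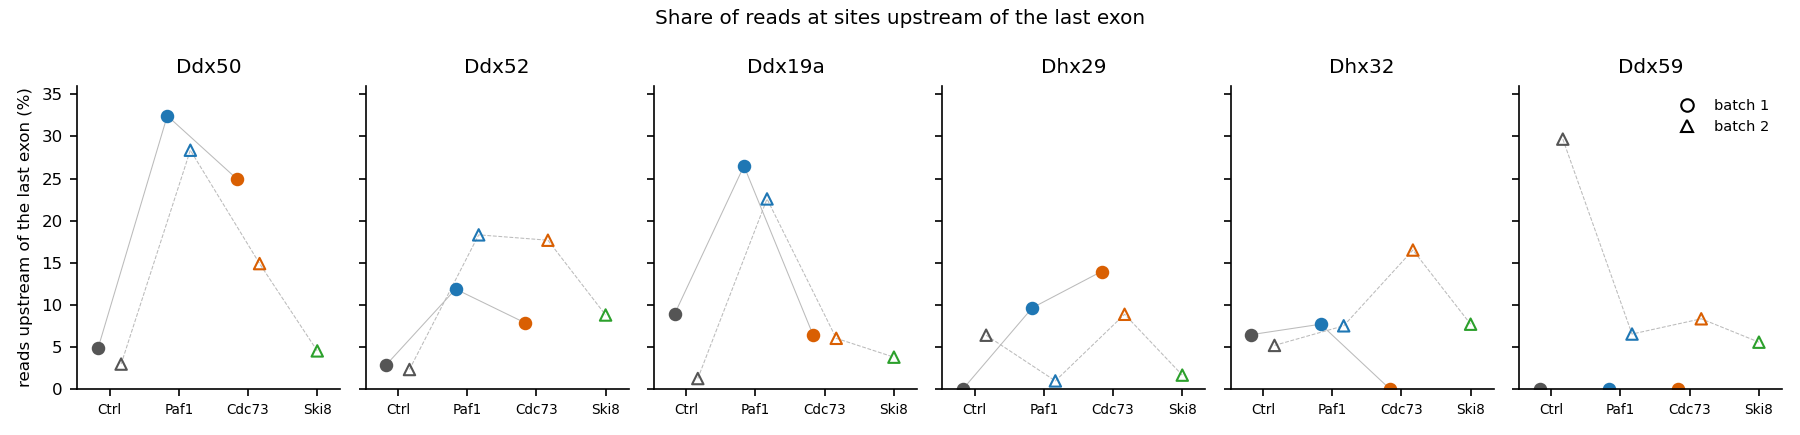
Upstream isoforms (intronic and internal exon pA sites) as a percentage of the CDS-APA reads of Ddx50, Ddx52, Ddx19a, Dhx29, Dhx32 and Ddx59 in each 3'READS library, with circles for batch 1, triangles for batch 2 and grey lines that join a batch. Ddx50, Ddx52 and Ddx19a lie higher in both siPaf1 libraries than in both siCtrl libraries, and Ddx50 and Ddx52 also in both siCdc73 libraries.

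Ddx50 (chr10:62078540-62113966, minus strand) had an upstream share of 4.84% and 2.95% in siCtrl, 32.5% and 28.4% in siPaf1, 25% and 14.9% in siCdc73, and 4.52% in siSki8, from 3 of 62, 8 of 271, 37 of 114, 80 of 282, 23 of 92, 42 of 282 and 8 of 177 reads. All 4 siPaf1 and siCdc73 libraries were above both siCtrl libraries, and siSki8 was between the siCtrl values. The Wilson 95% interval of the share, which covers counting error only, was 1.5% to 5.72% for siCtrl and 23.4% to 33.9% for siPaf1 of batch 2. Since its site passed the 5% filter only through siPaf1 and siCdc73, its changes after both are given as descriptions. The log2 change of the ratio of upstream to 3'-most exon reads was 3.39 ± 0.80 (SE, adjusted p = 0.000325 with the block and 0.0799 without it) after siPaf1, lost without siCtrl of batch 2 (0.0552) or siPaf1 of batch 2 (0.0598). After siCdc73 it was 2.52 ± 0.81 (SE, adjusted p = 0.0111 with the block and 0.147 without it), lost without siCtrl of batch 1 (0.0527), siCtrl of batch 2 (0.211), siCdc73 of batch 1 (0.101) or siCdc73 of batch 2 (0.0791), and without the 5% filter on sites (0.0741).

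Ddx52 (chr11:83755564-83776590, plus strand) is a helicase of small ribosomal subunit assembly. Its upstream share was 2.88% and 2.31% in siCtrl, 11.9% and 18.3% in siPaf1, 7.87% and 17.7% in siCdc73, and 8.78% in siSki8, and all 5 knockdown libraries were above both siCtrl libraries. Its intron 4 site passed the filter only through siPaf1, and its other site only with siCdc73 and siSki8, so the changes after siPaf1 and siCdc73 are given as descriptions. After siPaf1 it was 2.58 ± 0.88 (SE, adjusted p = 0.0192 with the block and 0.17 without it) on the log2 scale, lost without siCtrl of batch 2 (0.407, with a log2 change of 1.9), siPaf1 of batch 1 (0.0954) or siPaf1 of batch 2 (0.195). It was 3.17 without siCtrl of batch 1. Without the 5% filter on sites, an alternative added after the data had been seen, the adjusted p was 0.107. After siCdc73 it was 2.29 ± 0.90 (SE, adjusted p = 0.0465 with the block and 0.223 without it), and the call was lost without the 5% filter (0.124), with a minimum mean of 10 reads (0.0588) and whichever of the 6 libraries was left out (adjusted p = 0.0609 to 0.498), where the change ran from 1.59 without siCtrl of batch 2 to 2.87 without siCtrl of batch 1. Ddx19a (chr8:113498896-113521700, minus strand) remodels mRNPs at the cytoplasmic side of the nuclear pore. Its upstream share was 8.93% and 1.23% in siCtrl, 26.5% and 22.6% in siPaf1, 6.38% and 6.02% in siCdc73, and 3.77% in siSki8, from 5 of 56, 2 of 162, 31 of 117, 28 of 124, 3 of 47, 8 of 133 and 4 of 106 reads. Both siPaf1 libraries were above all others, and siCdc73 lay between the siCtrl values. Since its site passed the filter only through siPaf1, the change after siPaf1 is given as a description. On the log2 scale it was 2.93 ± 0.92 (SE, adjusted p = 0.00995 with the block and 0.178 without it), lost without siCtrl of batch 2 (0.478, with a log2 change of 1.76) or siPaf1 of batch 2 (0.253), and without the 5% filter (0.076). It was 4.29 without siCtrl of batch 1. Ddx19a and its neighbour Ddx19b are close paralogs, and only reads mapped with a quality above 10 were kept, so that reads from stretches they share may be missing or split.

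The other 3 helicases did not pass. The upstream share of Dhx29, which helps initiation on structured 5'UTRs, was 0% and 6.38% in siCtrl, 9.64% and 0.952% in siPaf1, 14% and 8.87% in siCdc73, and 1.64% in siSki8. That of Dhx32 was 6.45% and 5.17% in siCtrl, 7.69% and 7.5% in siPaf1, 0% and 16.5% in siCdc73, and 7.69% in siSki8, and that of Ddx59 was 0% and 29.7% in siCtrl, 0% and 6.52% in siPaf1, 0% and 8.33% in siCdc73, and 5.56% in siSki8. In Ddx59 the highest share was in siCtrl of batch 2 (19 of 64 reads), while the other siCtrl library had 0 of 41 reads, which, by the limit of 3 counts that a count of 0 allows, leaves room for a share of up to 7.32%.

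Single intronic sites with at least 20 reads over all 7 libraries were tested against all other sense reads of their gene, without the 5% filter. Here too a site could pass through the knockdown libraries alone, as Ddx50 intron 2 and Ddx52 intron 4 did with 2 siCtrl reads each, so the count of sites is a description. Of the 13, 2 were under 20 reads without the siPaf1 libraries, 6 without siCdc73 and 1 without siSki8. With the block, 4 of 13 sites rose after siPaf1, against 14.9% of 3931 sites (12.6% higher), 0 of 13 after siCdc73, against 16.7%, and 0 of 13 after siSki8, against 0.0%. At an unadjusted p under 0.05, 4 of 13 and 0 of 13 passed after siCdc73 and siSki8 with the block, against 29.4% and 4.25%. Without the block it was 0 of 13 each time, against 0.432%, 0.967% and 0.0%, with 4, 2 and 0 at an unadjusted p under 0.05, against 17.2%, 19.2% and 1.96%. Without siPaf1 of batch 2, 0 of 13 were called after siPaf1, against 3.51% of all sites. The 4 sites lay in the 3 genes of the CDS-APA calls. The reads of 3 of them also entered those calls, while Ddx50 intron 2, with 4.37% of the gene's reads, was under the 5% filter and did not. Their last 30 bases, 5' to 3' on the strand of the gene in mm9 (NCBIM37), are shown to let the poly(A) signals be compared, with AATAAA or ATTAAA in capitals where present:
Ddx50 intron 7 of 14, chr10:62098838-62098867, minus strand: attgtgatttatagtaaaatcttaagtgtg
Ddx50 intron 2 of 14, chr10:62108738-62108767, minus strand: tgctagtATTAAAgacatgtactattgtta
Ddx52 intron 4 of 14, chr11:83759926-83759955, plus strand: cccccatataaaacctgctcatcacaagta
Ddx19a intron 7 of 11, chr8:113504324-113504353, minus strand: tgaacatgAATAAActtgacctagcttaaa

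The sites of Ddx50 intron 2 and Ddx19a thus held a signal and the other 2 held neither hexamer in this window. Ddx50 intron 7, whose site lies 15128 bases from the TSS in an intron of 5734 bases, took 3.95% and 2.75% in siCtrl, 30.6% and 24.1% in siPaf1, 23% and 13.6% in siCdc73, and 4.19% in siSki8 of the gene's sense reads. It was the main upstream site of Ddx50, and all 4 siPaf1 and siCdc73 libraries were above both siCtrl libraries. With 19 reads in siCtrl and siSki8 together, it too reached 20 reads only through these libraries, and its changes are descriptions. The log2 change was 3.34 ± 1.0 (SE, adjusted p = 0.0118 with the block and 0.165 without it) after siPaf1, lost without siCtrl of batch 1 (0.0845), siCtrl of batch 2 (0.232), siPaf1 of batch 1 (0.0516) or siPaf1 of batch 2 (0.205). After siCdc73 it was 2.55 ± 1.01 (SE, adjusted p = 0.0629 with the block and 0.225 without it), which did not pass. The site in intron 2, 5228 bases from the TSS, took 0% and 0.687% in siCtrl, 2.48% and 12% in siPaf1, 4% and 3.88% in siCdc73, and 0.524% in siSki8. It reached 20 reads only through the siPaf1 libraries, so the change after siPaf1 is given as a description. It was 3.54 ± 1.25 (SE, adjusted p = 0.0374 with the block and 0.241 without it) on the log2 scale, lost without siCtrl of batch 1 (0.107), siCtrl of batch 2 (0.465) or siPaf1 of batch 2 (0.661, with a log2 change of 1.94). It was 4.15 without siPaf1 of batch 1. Both siPaf1 libraries were above both siCtrl libraries, that of batch 2 by far the highest.

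The Ddx19a site took 7.58% and 1.06% in siCtrl, 26.5% and 21.1% in siPaf1, 5.45% and 5.06% in siCdc73, and 3.2% in siSki8, again highest in both siPaf1 libraries. Since the Ddx19a site had 11 reads in siCtrl and siSki8 together, it reached 20 reads only through siPaf1 and siCdc73, and its change is a description. The log2 change after siPaf1 was 3.1 ± 1.11 (SE, adjusted p = 0.040 with the block and 0.233 without it). The Ddx52 site in intron 4 took 1.92% and 0% in siCtrl, 7.2% and 14.1% in siPaf1, 7.45% and 7.26% in siCdc73, and 1.3% in siSki8, and all 4 siPaf1 and siCdc73 libraries were above both siCtrl libraries. With 4 reads in siCtrl and siSki8 together, the Ddx52 site reached 20 reads only through siPaf1 and siCdc73, and its change is a description. The log2 change after siPaf1 was 3.29 ± 1.21 (SE, adjusted p = 0.0466 with the block and 0.226 without it). Both calls were lost whichever of the 6 libraries was left out (adjusted p = 0.0626 to 0.547 for Ddx19a and 0.0573 to 0.56 for Ddx52). The change then ran from 1.99 without siCtrl of batch 2 to 4.41 without siCtrl of batch 1 for Ddx19a and from 2.08 without siCtrl of batch 2 to 5.28 without siCtrl of batch 1 for Ddx52. A site of Ddx56, a helicase of large ribosomal subunit assembly, took 0% and 1.05% in siCtrl, 1.35% and 1.83% in siPaf1, 6% and 15% in siCdc73, and 2.96% in siSki8. It was highest in both siCdc73 libraries. Of its 35 reads 11 lay outside siCdc73, so that it reached 20 reads only through that knockdown, and the log2 change of 3.46 ± 1.37 (SE, adjusted p = 0.0638 with the block and 0.199 without it), which did not pass, is a description. 

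For 3'UTR-APA the 2 most used sites of the class last exon or downstream were compared in 23 helicases, the proximal one ending the shorter 3'UTR. Such a site can lie beyond the annotated gene, as the distal site of Dhx36 did. With the block, the proximal share of 1 of 23 rose after siPaf1, against 6.61% of 4567 genes called (4.93% higher), of 2 of 23 after siCdc73, against 4.25% (3.83% higher), and of 0 after siSki8, against 0.307%. At an unadjusted p under 0.05 it was 2 of 23 after siSki8, against 7.58%. Without the block it was 0 of 23 each time, against 0.0% of all genes in all 3, with 0, 1 and 0 at an unadjusted p under 0.05, against 5.01%, 4.16% and 1.27%. Without the block the 23 had a median log2 change of 0.03 with siPaf1, 0.82 with siCdc73 and 0.75 with siSki8, beside 0.29, 0.39 and 0.36 over all genes. The siPaf1 median was −0.27 without siCtrl of batch 1, −0.05 without siCtrl of batch 2, −0.35 without siPaf1 of batch 2 and 0.28 without siPaf1 of batch 1. Without siPaf1 of batch 2, 0 of 23 were called after siPaf1, against 1.14% of all genes. The last 30 bases of both sites are given for the 3 helicases on which these results turn, in mm9 and on the strand of the gene, with AATAAA in capitals:
Ddx21 proximal, chr10:62044861-62044890, minus strand: acaaagtaaaaccaaccatggatctgccta
Ddx21 distal, chr10:62042995-62043024, minus strand: catAATAAAgataccgatgctttatattta
Dhx36 proximal, chr3:62274004-62274033, minus strand: tttAATAAAatgtacaatgtataaatctca
Dhx36 distal, chr3:62271937-62271966, minus strand: tgttttatgAATAAAgctgctctaagtgta
Ddx46 proximal, chr13:55780447-55780476, plus strand: aatgctgtAATAAAgtctgtcaggcactaa
Ddx46 distal, chr13:55782588-55782617, plus strand: ttccttacagAATAAAgttgattcagtcgg

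The proximal site of Ddx21 was the only one of the 6 without AATAAA or ATTAAA in this window. The 2 Ddx21 sites lie 1866 bases apart, and the proximal one took 58.2% and 79% in siCtrl, 69.6% and 94.8% in siPaf1, 86.8% and 91.5% in siCdc73, and 87.3% in siSki8 of their reads. The siCdc73 and siSki8 libraries were above both siCtrl libraries, and siPaf1 was above siCtrl within each batch. The log2 change of the ratio of proximal to distal reads was 1.84 ± 0.41 (SE, adjusted p = 0.00143 with the block and 1 without it) after siCdc73, lost without siCtrl of batch 2 (0.378) or siCdc73 of batch 1 (0.339, with a log2 change of 1.14). The call held without siCdc73 of batch 2, with a log2 change of 2.66. After siPaf1 it was 1.54 ± 0.41 (SE, adjusted p = 0.00857 with the block and 1 without it), lost without siCtrl of batch 1 (0.099), siCtrl of batch 2 (0.581) or siPaf1 of batch 2 (0.853, with a log2 change of 0.52). The call held without siPaf1 of batch 1, with a log2 change of 2.45. Without the block and without siPaf1 of batch 2 it was −0.01. After siSki8 it was 0.73 ± 0.52 (SE, adjusted p = 0.786 with the block and 1 without it), and 0.42 to 1.03 with the block when 1 library was left out. Ddx21 was thus called after siCdc73 both for its level and for its proximal site, and for both the batches were far apart.

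Dhx36, which unwinds G-quadruplexes, has sites 2067 bases apart, and the proximal one took 84.9% and 78.8% in siCtrl, 91.5% and 89.1% in siPaf1, 92.3% and 93.8% in siCdc73, and 93.2% in siSki8. All 5 knockdown libraries were above both siCtrl libraries. The log2 change was 1.58 ± 0.46 (SE, adjusted p = 0.0235 with the block and 1 without it) after siCdc73, lost without siCtrl of batch 1 (0.178), siCtrl of batch 2 (0.75) or siCdc73 of batch 2 (0.425), and without the 5% filter on sites (0.0566). It was 1.04 ± 0.45 (SE, adjusted p = 0.175 with the block and 1 without it) after siPaf1 and 1.72 ± 0.58 (SE, adjusted p = 0.242 with the block and 1 without it) after siSki8, which did not pass.

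Ddx46 (chr13:55736388-55782617, plus strand), whose summed level did not pass any test, also passed no test against siCtrl in its 3'UTR. The study shows this gene as an example of changes in APA. Its sites lie 2141 bases apart, and the proximal one took 29.2% and 15.2% in siCtrl, 16.2% and 9.86% in siPaf1, 39.2% and 34% in siCdc73, and 45.2% in siSki8 of their reads. Within each batch siPaf1 was below siCtrl and siCdc73 above it, and siSki8 was the highest library. Against siCtrl the log2 change was -0.89 ± 0.47 (SE, adjusted p = 0.315 with the block and 1 without it) with siPaf1, 1.1 ± 0.47 (SE, adjusted p = 0.222 with the block and 1 without it) with siCdc73 and 2.0 ± 0.61 (SE, adjusted p = 0.144 with the block and 1 without it) with siSki8, and none passed. The siPaf1 change ran from -1.22 to -0.58 with the block when 1 library was left out. The direct test of siPaf1 against siCdc73, chosen after the data had been seen, called 1 of 23 helicases, against 2.08% of all genes, and this was Ddx46, with a difference of -1.99 ± 0.48 (SE, adjusted p = 0.00496 with the block and 1 without it). It was lost without siPaf1 of batch 2 (0.128) or siCdc73 of batch 2 (0.339). The same direct test called 0 of the 6 helicases in CDS-APA, 0 of the 13 intronic sites and 0 of the 4 in uaRNA, against 5.15%, 3.84% and 0.0%. Of the helicases that did not pass, the proximal share of Ddx3x, a factor of translation initiation whose sites lie 64 bases apart, was 10.6% and 6.08% in siCtrl, 4.59% and 1.76% in siPaf1, 8.47% and 6.94% in siCdc73, and 9.93% in siSki8, lower in both siPaf1 libraries than in both siCtrl libraries. Its log2 change after siPaf1 was -1.56 ± 0.67 (SE, adjusted p = 0.171 with the block and 0.982 without it). That of Ddx17, with sites 1655 bases apart, was 10.2% and 8.82% in siCtrl, 11.7% and 8.31% in siPaf1, 17.5% and 16.3% in siCdc73, and 9.67% in siSki8, higher in both siCdc73 libraries, with a log2 change after siCdc73 of 0.96 ± 0.46 (SE, adjusted p = 0.302 with the block and 1 without it). 

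**Figure D5:**
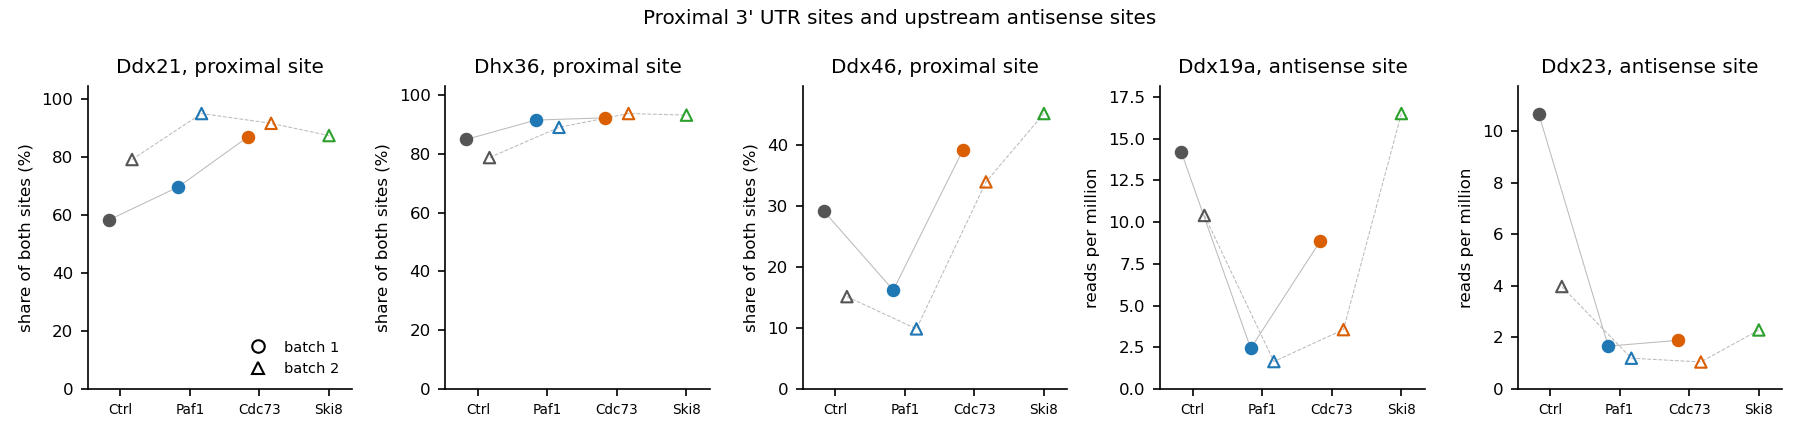
Left, the proximal site as a percentage of proximal and distal reads of Ddx21, Dhx36 and Ddx46, and right, upstream antisense PASS reads in RPM (reads per 1e6 PASS reads of the library) of Ddx19a and Ddx23, in each 3'READS library, with circles for batch 1, triangles for batch 2 and grey lines that join a batch. Ddx46 is lowest in the siPaf1 library of batch 2 and highest in siSki8, and the antisense reads of Ddx19a are lowest in both siPaf1 libraries.

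Upstream antisense RNA (uaRNA) is transcribed away from a promoter on the other strand. Of the 8 UA sites of 6 helicases only 2 had more than 10 reads in any library, and 4 genes had the 10 reads over all libraries that the test needed. With the block, 0 of 4 were called after each of siPaf1, siCdc73 and siSki8, against 2.07%, 2.16% and 0.0902% of 1109 genes, with 1, 0 and 0 at an unadjusted p under 0.05, against 14.1%, 15.9% and 1.8%. Without the block it was 0 of 4 each time, against 0.0902%, 0.271% and 0.0%, with 0 each at an unadjusted p under 0.05, against 9.2%, 10.4% and 1.08%. Among genes with at least 30 antisense reads, 0 of 3 were called each time with the block, against 9.88%, 12.3% and 0.176% of 567 genes. The last 30 bases of the 2 sites, on the antisense strand in mm9, are shown because these sites hold nearly all the uaRNA reads of the family, with the AATAAA nearest to the site in capitals:
Ddx19a upstream antisense, chr8:113522301-113522330, plus strand: gtgtagttacatataaatAATAAAtatttt
Ddx23 upstream antisense, chr15:98495864-98495893, plus strand: tacttacacttaataaataAATAAAtcttt

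The Ddx19a site lies 630 bases upstream of the TSS, and 7 of the 10 genomic bases that follow it are A. It had 105 and 102 reads in siCtrl, 19 and 22 in siPaf1, 47 and 51 in siCdc73, and 137 in siSki8, or 14.2 and 10.4 RPM in siCtrl, 2.43 and 1.64 in siPaf1, 8.86 and 3.56 in siCdc73, and 16.5 in siSki8. Both siPaf1 libraries were the lowest, both siCdc73 libraries lay between siPaf1 and siCtrl, and siSki8 was the highest. Against the sense reads of Ddx19a the log2 change was -2.46 ± 1.24 (SE, adjusted p = 0.344 with the block and 0.686 without it) after siPaf1 and -0.81 ± 1.21 (SE, adjusted p = 0.833 with the block and 0.935 without it) after siCdc73. When 1 library was left out, these ran from -3.22 to -1.71 and from -1.25 to -0.39 with the block. The Ddx23 site lies 2573 bases upstream of the TSS, on the opposite strand of the annotated gene Rnd1. It had 79 and 39 reads in siCtrl, 13 and 16 in siPaf1, 10 and 15 in siCdc73, and 19 in siSki8, or 10.7 and 3.98 RPM in siCtrl, 1.66 and 1.19 in siPaf1, 1.89 and 1.05 in siCdc73, and 2.29 in siSki8, all 5 knockdown libraries being below both siCtrl libraries. The log2 change against sense reads of Ddx23 was -1.84 ± 1.27 (SE, adjusted p = 0.532 with the block and 0.766 without it) after siPaf1, and -2.77 to -1.04 with the block when 1 library was left out. Both UA sites of Ddx59 were also listed for another gene.

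Other genes of the same pathways, taken from lists that hold no member, were read the same way. Of 12 RNA helicases of superfamily 2 with other symbols, all tested in 3'READS and 8 in RNA-seq, 1 rose after siPaf1 and 2 rose after siCdc73 in 3'READS, against 9.74% and 10.8% of all genes called higher, and siSki8 changed 0. In RNA-seq 2 fell after siPaf1, 3 rose after siCdc73 and 1 rose after siSki8, against 16.2% lower, 19.4% higher and 2.93% higher. When siPaf1 of batch 2 was left out, 1 of 12 rose and 1 fell after siPaf1 in 3'READS, and 1 of 8 rose and 2 fell in RNA-seq, against 13.9% and 30.1% of all genes called. Eif4a2, a translation initiation helicase of the DEAD box type, rose by 1.13 on the log2 scale after siCdc73 in 3'READS and by 1.22 in RNA-seq (adjusted p = 0.0109 and 8.04e-05 with the block and 0.248 and 0.124 without it). Of 24 cofactors and partners of these helicases, 23 were tested in 3'READS, where siPaf1 raised 1 and lowered 3, siCdc73 raised 7 and lowered 3, and siSki8 changed 0, against 18.8%, 22.5% and 0.151% of all genes called. In RNA-seq, 10 were tested, of which 3 rose and 1 fell after siPaf1, 4 rose after siCdc73 and 1 rose after siSki8, against 32.5%, 39.9% and 5.43%. Without siPaf1 of batch 2, siPaf1 raised 3 and lowered 2 of 23 in 3'READS, and 2 of 10 rose in RNA-seq, against 13.9% and 30.1%.

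The widest changes of this list in 3'READS were in the SMN complex, which assembles spliceosomal snRNPs and to which the helicase Ddx20 belongs. Smn1 stood at 6.75 and 5.86 CPM in siCtrl, 24.5 and 27.5 in siPaf1, 62.5 and 37.7 in siCdc73, and 8.87 in siSki8 in 3'READS, and rose, with log2 fold changes of 2.03 after siPaf1 and 2.92 after siCdc73 (adjusted p = 0.000543 and 4.85e-05 with the block and 0.194 and 0.12 without it). Gemin4 stood at 56.7 and 38.9 CPM in siCtrl, 23.6 and 20.2 in siPaf1, 16.5 and 6.6 in siCdc73, and 53.9 in siSki8 and fell, by log2 fold changes of -1.08 and -2.13 (adjusted p = 0.0221 and 0.000381 with the block and 0.403 and 0.177 without it). The adjusted p after siPaf1 with the block was 0.000432 for Smn1 and 0.0024 for Gemin4 without siPaf1 of batch 2. In RNA-seq Smn1 stood at 71.4 and 144 CPM in siCtrl, 92.8 and 162 in siPaf1, 125 and 161.5 in siCdc73, and 257 in siSki8. It was not called there after siPaf1 or siCdc73, with log2 fold changes of 0.27 and 0.49 (adjusted p = 0.416 and 0.0984 with the block and 0.846 and 0.648 without it). Ddx20 itself stood at 3.0 and 5.58 CPM in siCtrl, 2.71 and 2.91 in siPaf1, 2.61 and 10.0 in siCdc73, and 11.4 in siSki8 and was not called. Both siPaf1 libraries of Ddx20 were below both siCtrl libraries, and siCdc73 overlapped with siCtrl.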

How the data were processed

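RNA-seq and 3'READS libraries of siRNA-transfected C2C12 myoblasts were analysed. The ChIP-seq samples of the series were not used here. The authors aligned reads to the mm9 genome with Bowtie2 in local mode and kept alignments of quality above 10. The deposited RNA-seq table gives, for RefSeq transcripts, strand-specific counts of reads in coding regions and RPKM values, from RNA depleted of rRNA. The deposited 3'READS table gives counts of PASS reads for each pA site. No column was left without a sample (0). Of the 15033 transcripts, the 1 with the highest mean was taken for each gene (2816 genes had several), and in 3'READS the sense sites of a gene were summed. RPKM, as the authors computed it, was used only to rank genes by level, and every test used the counts.

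Counts were tested with edgeR 4.0.16 (limma 3.58.1, R 4.3.3) by the quasi-likelihood test without a block, scaled by the trimmed mean of M values, siSki8 borrowing the spread of the replicated groups. Isoform ratios were tested as the interaction of isoform and knockdown. The batch numbers come from the labels, so a fit blocked on batch is printed beside it. As a check, the batch difference of siCtrl, siPaf1 and siCdc73 was correlated across genes for each pair of groups, with r of 0.620 to 0.748 in RNA-seq, 0.433 to 0.610 in 3'READS, 0.362 to 0.414 in CDS-APA, 0.479 to 0.561 in 3'UTR-APA, 0.318 to 0.371 at intronic sites and 0.136 to 0.312 in uaRNA. The biological coefficient of variation was 0.397 without and 0.179 with the block in RNA-seq and 0.515 and 0.247 in 3'READS. Tested genes passed edgeR's filter on low counts, had a mean of 20 reads for isoform pairs, or held 20 intronic or 10 antisense reads in all. On simulated RNA-seq counts with 6159 genes, changes of 2-fold were recovered for 0 of 188 genes without and 93 with the block. In 3'READS with 11316 genes it was 0 and 23 of 182. With the block, 8 unchanged genes were called wrongly in RNA-seq and 5 in 3'READS. For 4-fold changes in CDS-APA with 1766 genes it was 0 and 6 of 200. The simulated counts kept the batch difference as the blocked fit estimated it. A gain with the block was thus built in, and the simulation cannot decide whether the block suits the data. DESeq2 1.42.0, other filters and scalings, pooled Fisher tests and omission of each library were the alternatives. Sequences were read with pysam 0.24.0 from the mm9 genome (NCBIM37) and placed by the GENCODE annotation of that build. Scripts ran under Python 3.11.15 with pandas 2.3.3 and numpy 2.4.6, intervals used scipy 1.17.1, and plots used matplotlib 3.10.9.

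Helicases named in the text are Ddx46 and Dhx9, up to 3 per direction, measure and knockdown with the smallest adjusted p in the blocked fit and the same direction in each batch (mean of at least 20 reads, or 10 for uaRNA), the 3 highest per coding length in siCtrl and those under 1 CPM. Other helicases, levels by 3'READS and the direct contrasts were added after their values were seen. The helicases, their role groups and the other gene lists were chosen with earlier results of these data known. One gene that the symbol rule would take is not reported here.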

Additional observations from a re-analysis of the deposited data

How the results depend on the processing

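Without the block, edgeR with the filter on low counts called no helicase, also when any 1 of the 6 replicated libraries was left out (0 in each such fit). The calls of helicases named above were made with the batch term. Of those called after siPaf1 in 3'READS, Ddx4 and Ddx25 passed the filter on low counts only through siPaf1 of batch 2. With the replicate block, the helicases called after siPaf1, siCdc73 and siSki8 were 7, 7 and 0 in 3'READS, 7, 7 and 1 in RNA-seq, 3, 2 and 0 in CDS-APA and 1, 2 and 0 in 3'UTR-APA, and the intronic sites were 4, 0 and 0. Adding the omission of 1 library to the block gave 1 to 9, 2 to 10 and 0 to 1 in 3'READS, 1 to 7, 2 to 10 and 0 to 3 in RNA-seq, 0 to 3, 0 to 1 and 0 to 0 in CDS-APA, 0 to 2, 0 to 2 and 0 to 0 in 3'UTR-APA and 0 to 2, 0 to 0 and 0 to 0 at intronic sites. The shares of all genes or sites called in these fits were 6.24% to 24.3%, 11.1% to 34.4% and 0.551% to 3.72% in 3'READS, 13.3% to 36.3%, 18.6% to 52.1% and 1.85% to 16.1% in RNA-seq, 8.27% to 21.9%, 10.0% to 22.1% and 0.0% to 0.113% in CDS-APA, 0.504% to 7.47%, 0.526% to 5.79% and 0.0% to 0.373% in 3'UTR-APA and 2.72% to 11.5%, 4.12% to 15.9% and 0.0% to 0.0% at intronic sites. With the block, DESeq2 gave 4, 8 and 1 in 3'READS (15.2%, 20.9% and 3.61% of genes with an adjusted p) and 7, 6 and 1 in RNA-seq (26.6%, 34.0% and 4.52%), and scaling by library size gave 6, 7 and 0 in 3'READS (20.2%, 23.2% and 0.382% of all genes) and 8, 8 and 1 in RNA-seq (33.1%, 41.8% and 7.38%). DESeq2 did not call Ddx4, Ddx25 and Ddx11 after siPaf1 in 3'READS or Dhx32 after siCdc73 in RNA-seq, but called Ddx47 after siCdc73 and Ddx21 after siSki8 in 3'READS, and library size scaling did not call Ddx39b after siPaf1 in 3'READS or Ddx27 and Dhx40 after siCdc73 in RNA-seq, but called Dhx32 after siPaf1 and Ddx23, Ddx59 and Dhx15 after siCdc73 in RNA-seq, all lower. Without the block, DESeq2 called 2 in 3'READS after siCdc73 (Dhx38 and Dhx8, against 6.4% of genes) and 1 in RNA-seq after siCdc73 (Dhx8, against 8.77%), and edgeR without the filter on low counts also called 1, Dhx8 in RNA-seq (against 2.85%). Pooled Fisher tests, which ignore replicate spread, called 8 of 23, 10 of 24 and 6 of 23 in RNA-seq (40.8%, 46.4% and 43.2% of all genes), 4, 3 and 0 of 6 in CDS-APA (58.6%, 55.7% and 17.5%) and 9, 11 and 9 of 23 in 3'UTR-APA (49.7%, 43.6% and 35.7%). Of these, 3, 6 and 1 were higher in RNA-seq, 3, 2 and 0 in CDS-APA and 4, 11 and 7 in 3'UTR-APA. The following were chosen after the data had been seen, with the block. Without the 5% filter on minor sites it was 1 of 20 after siPaf1 and 0 of 20 after siCdc73 in CDS-APA (7.88% and 10% of all genes), and 1 of 29 after siPaf1 and 2 of 29 after siCdc73 in 3'UTR-APA (3.96% and 2.93%), where Dhx36 after siCdc73 was lost. With a mean of 10 reads it was 3 and 1 of 7 in CDS-APA (17.6% and 17.3%) and 1 and 2 of 24 in 3'UTR-APA (5.8% and 3.81%). With intronic sites of at least 50 reads it was 4 and 1 of 5 (25.5% and 27.2%). The changes that reversed without the block were those of Ddx21 after siCdc73 in 3'READS, -0.70 without siCdc73 of batch 2 (-0.70 to 3.36 over all such omissions), and of the proximal site of Ddx21 after siPaf1, -0.011 without siPaf1 of batch 2 (-0.011 to 3.00). The cause was not tested.

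Low counts limit the isoform results. The 3 genes called in CDS-APA rest on as few as 2 upstream reads in a siCtrl library, only 6 of the 50 helicases could be tested there, and 34 of the 47 intronic sites had too few reads for a test. The siSki8 values rest on 1 library. Scaling by library size instead of the trimmed mean moved the median of all genes in RNA-seq by -0.16 after siCdc73 and -0.33 after siSki8 on the log2 scale, so that directions of change there are relative to that scale.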
